A study of Mus musculus with 4 samples.

Results

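The 42 genes described here encode the core machinery of DNA replication: the subunits of the origin recognition complex, the licensing factors, the MCM2-7 helicase and the proteins that activate it, the sliding clamp and its loader, the replicative polymerases, the enzymes that join Okazaki fragments and the single-strand binding protein RPA. They were listed by name from these known roles and not by their measured values, although earlier results of these data were known. All 42 were found among the 34866 genes of the TPM table. A cell copies its genome once per cycle in a fixed order. In G1 phase the origin recognition complex, Cdc6 and Cdt1 load MCM helicases onto DNA, in S phase kinases and further factors turn each helicase into a moving fork, and polymerases then copy the strands behind it. Many of these genes are transcribed under E2F factors as cells enter S phase, and MYC, the oncogene of this lymphoma model, is known for driving cells into the cycle.

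The cells came from λ-MYC Tom+/ki mice, which carry 3 alleles (λ-MYC+/TG, a Cre knock-in and R26tdTom+/ki). The λ-MYC transgene is human MYC, derived from a Burkitt lymphoma translocation and driven by Igλ light chain elements. Cre switches on the tdTomato reporter for good, so that Tom+ marks a cell, or a descendant of one, that expressed Cre at some time. From the spleens of 2 mice with IgM+ Tom+ tumors (tumor #1 and tumor #2), B220+ IgM+ Tom+ and B220+ IgM+ Tom- cells were sorted, which gave 4 libraries. All 3 alleles are shared by the Tom+ and the Tom- cells, and the ages of the 2 mice were not given in the sources used here. Each tumor is 1 mouse, so a difference between the tumors has no replicates and was not tested.

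Values are TPM, transcript abundances scaled to gene length and to a sum of 1000000 per library, so that levels can be set side by side between genes. They keep no record of how many reads lie behind them, so the error of counting cannot be given. Immunoglobulin genes held 5.35% to 9.76% of TPM and mitochondrial genes 6.61% and 8.67% in tumor #1 and 14.4% and 15.6% in tumor #2. The 7 B cell markers summed to 2213 (Tom-) and 2010 TPM (Tom+) in tumor #1 and to 4560 and 5620 TPM in tumor #2, and none of them was at 0 or under 1 TPM in every library. Other cell types left little: 8 T and NK cell markers summed to 7.61 and 4.65 TPM in tumor #1 against 18.9 and 15.5 TPM in tumor #2 (Nkg7 and Ncr1 listed at 0 throughout), 8 myeloid markers to 2.64 and 4.77 against 13.5 and 7.15 TPM (0 of them at 0 throughout), and 7 erythroid markers to 21.5 and 17.6 TPM in tumor #1 against 0.900 and 1.14 TPM in tumor #2 (2 of them, Hba-a1 included, at 0 throughout). The 6 plasma cell markers summed to between 129 and 341 TPM, the highest in Tom+ cells of tumor #2, where Jchain stood at 209 TPM. In bulk libraries of this kind, fewer cells of a type and less RNA per cell cannot be told apart.

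All 42 genes passed the filter for testing, 2 libraries or more at 1 TPM or above, which 11339 genes passed in all, and 41 of them were at 5 TPM or more in every library. The exception was Gins3, a subunit of the GINS complex, with 6.65 (Tom-) and 6.12 TPM (Tom+) in tumor #1 and 4.91 and 5.05 TPM in tumor #2. Pcna, the sliding clamp that holds polymerases on DNA, was the highest of the 42 in each library, at 404 and 450 TPM in tumor #1 against 231 and 184 TPM in tumor #2. Mcm6 came next in each library. The summed TPM of the 42 genes was 3150 (Tom-) and 3308 (Tom+) in tumor #1 and 2183 and 1944 in tumor #2, that is 1.44 times as high in tumor #1 in the Tom- cells and 1.70 times in the Tom+ cells. The order of the 42 levels was closest between libraries of the same tumor, with a Spearman's rho of 0.969 in tumor #1 and 0.949 in tumor #2 against 0.799 to 0.878 between tumors. These are descriptions over 42 genes that share their libraries.

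**Figure D1:**
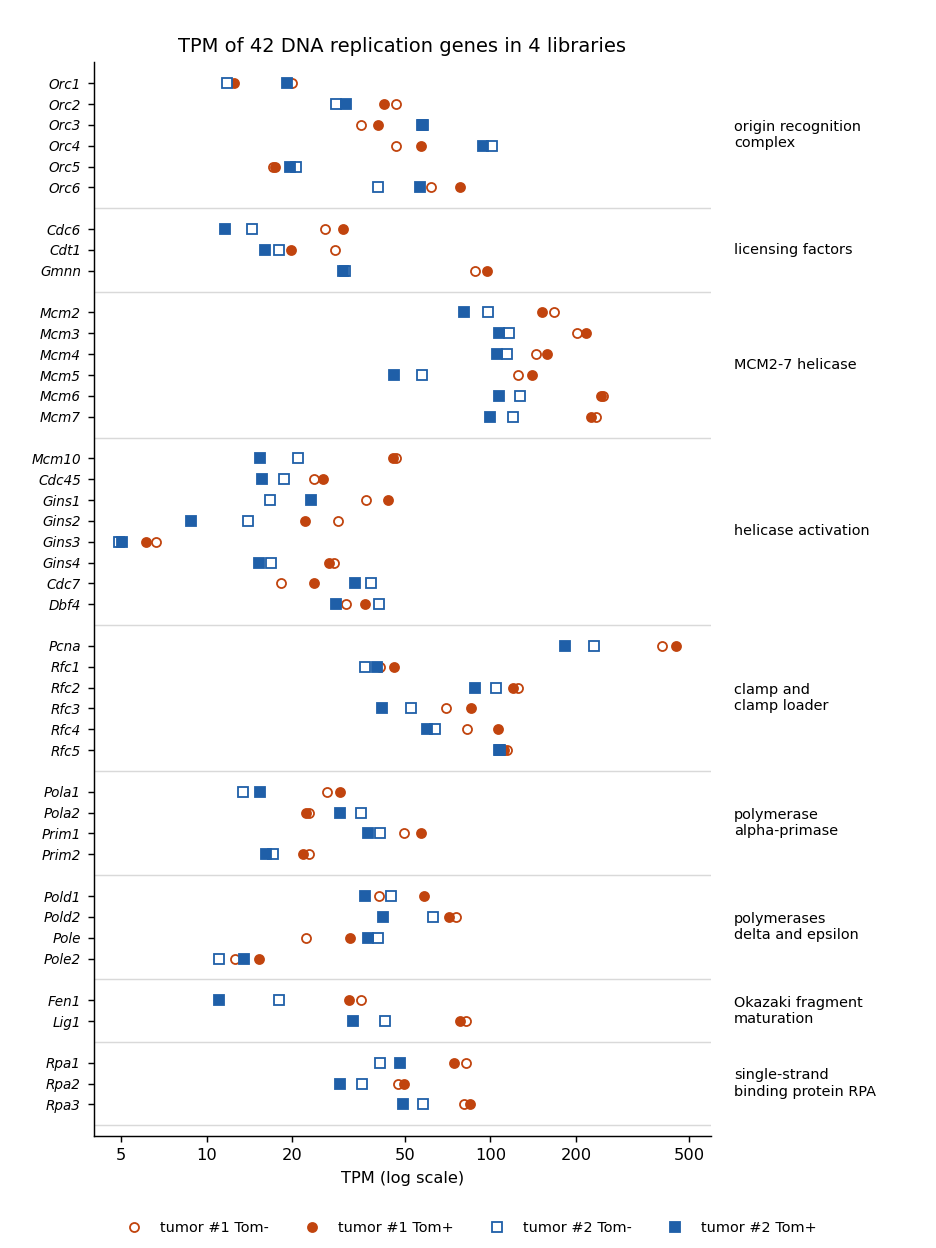
TPM of each of the 42 replication genes (rows, grouped by role) on a log axis, with circles for tumor #1, squares for tumor #2, open symbols for Tom- and filled symbols for Tom+ libraries. Each symbol is 1 library. For most genes the circles lie to the right of the squares, while the open and filled symbols of a tumor are often adjacent.

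The replication genes differed between the tumors more than between Tom+ and Tom- cells. In 32 of the 42 genes both libraries of tumor #1 were above both libraries of tumor #2, which was so for 23.7% of all genes tested. In 6 genes (Orc3, Orc4, Orc5, Cdc7, Pola2 and Pole) both libraries of tumor #2 were above those of tumor #1, against 44.8% of all genes, and in 4 (Orc1, Dbf4, Pold1 and Pole2) the tumors overlapped. Counted within the Tom- and within the Tom+ libraries, 33 genes were lower in tumor #2 in both comparisons (27.5% of all genes) and 6 were higher in both (49.6% of all genes). Differences were computed on the log2(TPM + 1) scale, which understates those of low genes. By at least 1.5 fold on this scale in the Tom- and in the Tom+ libraries alike, 16 genes were lower in tumor #2 and 1, Orc4, was higher, where 7.53% of all genes were lower and 22.6% were higher. With protein-coding nuclear genes only, rescaled to 1000000, these counts were 15 and 3. Of the 10066 genes tested under that setting, 604 were lower and 2609 (25.9%) higher. Trimmed-mean scaling gave 25 and 0, where 13.3% of all genes were lower and 16.6% higher, and quantile normalization gave 22 and 1, where 13.4% were lower and 13.9% higher.

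The median difference of the 42 genes, tumor #2 minus tumor #1, was -0.55 (-0.44 in Tom- and -0.68 in Tom+ cells), while that of all genes tested was 0.20. Relative to all genes the median was thus -0.75, and 36 genes lay below the median of all genes and 6 above it. The median of all genes depended on the scaling of the libraries. Trimmed-mean scaling gave -0.014, quantile normalization -0.082 and protein-coding nuclear genes only 0.29, where the median of the 42 genes was -0.80, -0.74 and -0.47, in each case below it. Of the sum of squares of the 42 genes, the tumors accounted for 88.7%, Tom status for 5.04% and the remainder for 6.25%, against 69.9%, 15.0% and 15.0% over all genes. Over the protein-coding genes tested these shares were 76.4%, 11.6% and 12.0%. The median level of the 42 genes was 34.8 to 47.6 TPM over the libraries, and that of all genes tested 10.1 to 13.1 TPM. The shares of all genes given here were not matched for level. For 36 of the 42 genes the difference between the tumors was larger than that between Tom+ and Tom- cells of either tumor, which held for 57.9% of all genes. Beside this difference, the mitochondrial share and the summed B cell, T and NK cell and myeloid markers were higher in tumor #2, and the summed erythroid markers and the share of TPM in annotated pseudogenes (31.3% and 30.3% against 25.4% and 23.4%) were lower. Their part in it was not tested.

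**Figure D2:**
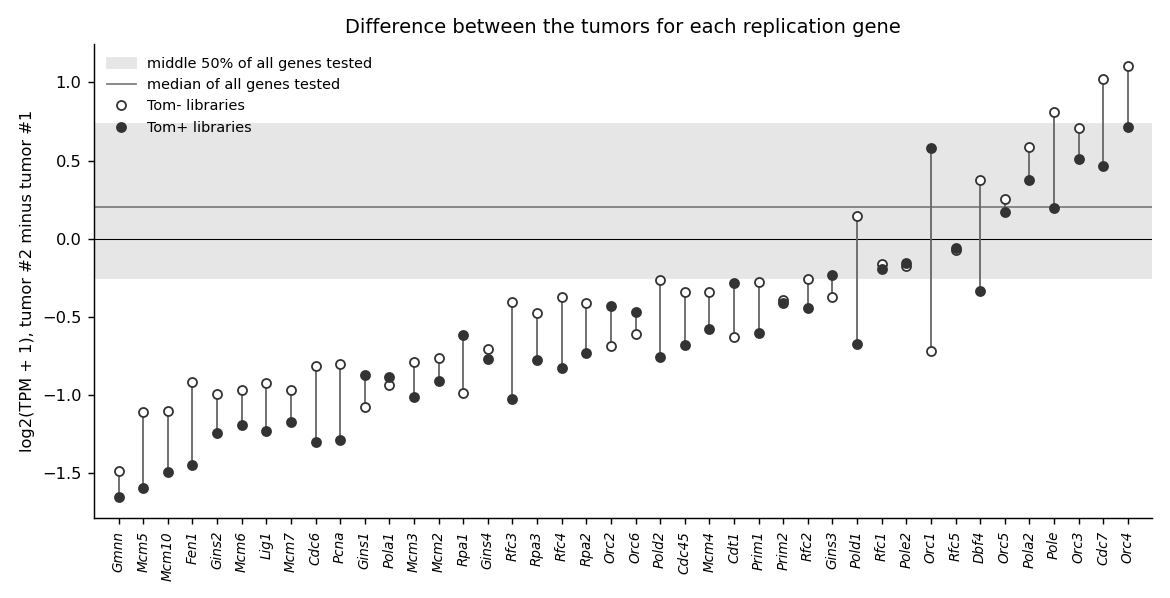
Difference in log2(TPM + 1), tumor #2 minus tumor #1, for each of the 42 genes in order of its mean, with an open circle for the Tom- and a filled circle for the Tom+ libraries and a line joining them. The gray band is the middle 50% of all genes tested, from -0.25 to 0.73, and the gray line their median of 0.20. From Gmnn, the lowest, most genes lie below the band, and Orc4 is the only one with both circles near or above its upper edge.

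The origin recognition complex, which binds origins and recruits the later factors, was the group in which the tumors differed least in one direction. Its 6 subunits had a median difference of 0.072, and the summed TPM of the complex was 227 (Tom-) and 248 (Tom+) in tumor #1 and 260 and 278 in tumor #2. Orc4 (chr2:48902824-48950277 of GRCm38) was at 46.5 and 57.0 TPM in tumor #1 against 101 and 94.3 TPM in tumor #2, a difference of 0.91 ± 0.28. The value after ±, here and below, is the SD of the Tom- and the Tom+ difference (n = 2). Both differences come from the same 2 mice. This SD shows how far the Tom fractions differ and not the spread between mice, which is unknown. Orc3 was also higher in tumor #2, with 35.0 and 40.1 TPM against 57.8 and 57.5 TPM. These groups did not overlap, and both genes were higher in tumor #2 under each of the scalings run. For Orc5 the values lay close together, at 17.1 and 17.4 TPM against 20.6 and 19.7 TPM, and its difference of 0.21 became -0.024 after trimmed-mean scaling and -0.049 after quantile normalization. Orc2 and Orc6 were higher in tumor #1, with 46.6 and 42.3 against 28.5 and 31.1 TPM for Orc2 and 61.9 and 78.4 against 40.3 and 56.4 TPM for Orc6. Orc1, the largest subunit, was 20.04 and 12.5 TPM in tumor #1 against 11.8 and 19.2 TPM in tumor #2, so that the tumors overlapped.

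Among the licensing factors, Gmnn had the lowest tumor difference of all 42 genes. It encodes geminin, which holds Cdt1 inactive after origins have fired. Gmnn (chr13:24751845-24761923) stood at 88.3 (Tom-) and 96.8 TPM (Tom+) in tumor #1 but 30.8 and 30.1 TPM in tumor #2, a ratio of mean TPM of 3.04 and a difference of -1.57 ± 0.11. Cdc6, the ATPase that loads MCM helicases with the origin recognition complex, was at 26.2 and 30.2 TPM in tumor #1 against 14.4 and 11.7 TPM in tumor #2 (-1.06 ± 0.34). Both were far apart between the tumors and close within each. Cdt1, which brings the MCM complex to the origin, was at 28.4 and 19.8 against 18.0 and 16.1 TPM, and its difference in the Tom+ libraries (-0.29) was less than 1.5 fold.

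The 6 subunits of the MCM2-7 helicase, which unwinds DNA at the fork, were all lower in both libraries of tumor #2, and 5 of them by at least 1.5 fold. Summed over the subunits, TPM was 1124 and 1138 in tumor #1 and 633 and 545 in tumor #2, a ratio of 1.78 in Tom- and 2.09 in Tom+ cells. The subunits work as a ring with 1 copy of each, yet their levels per length were not equal. Mcm6 (chr1:128331590-128359664) was the highest, with 250 and 246 TPM in tumor #1 against 127 and 107 TPM in tumor #2 (-1.08 ± 0.16), and Mcm7 was close to it, with 236 and 226 against 120 and 99.7 TPM (-1.07 ± 0.14). Mcm5 (chr8:75109569-75128439) was the lowest subunit in each library, at 125 and 141 TPM in tumor #1 against 57.4 and 45.8 TPM in tumor #2, and had the largest tumor difference of the 6 (-1.35 ± 0.34). Mcm5 was thus lower relative to its partners in tumor #2 than in tumor #1. Mcm3 was at 201 and 216 against 116 and 107 TPM (-0.90 ± 0.16), and Mcm2 at 167 and 152 against 97.9 and 80.7 TPM (-0.84 ± 0.10). Mcm4, at 145 and 158 against 114 and 105 TPM, had the smallest difference of the ring (-0.46 ± 0.17) and was the subunit that stayed under 1.5 fold.

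Of the 8 genes that activate the helicase, 4 were lower in tumor #2 by at least 1.5 fold, and the kinase genes did not follow the others. Mcm10, a scaffold for the activated fork, was at 46.3 and 45.5 TPM in tumor #1 against 21.1 and 15.5 TPM in tumor #2 (-1.30 ± 0.28). Cdc45 and the GINS complex join the MCM ring to form the active helicase. Gins1 was at 36.4 and 43.5 against 16.7 and 23.3 TPM (-0.98 ± 0.15), Gins2 at 28.9 and 22.2 against 14.0 and 8.79 TPM (-1.12 ± 0.18) and Gins4 at 28.0 and 26.9 against 16.8 and 15.4 TPM (-0.74 ± 0.047). All 3 had tumor #1 above tumor #2 without overlap, as had Gins3 with a smaller difference (-0.30). Cdc45 was at 23.9 and 25.7 against 18.7 and 15.7 TPM (-0.51 ± 0.24). Cdc7, the kinase that phosphorylates the MCM ring at the start of S phase, was higher in tumor #2, with 18.2 and 23.9 against 38.0 and 33.3 TPM (0.74 ± 0.39). Its activating subunit Dbf4 was at 31.0 and 36.2 TPM in tumor #1 against 40.5 and 28.5 TPM in tumor #2, where the tumors overlapped.

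The clamp and the genes of its loader, the RFC complex, differed from each other in how far the tumors lay apart. Pcna (chr2:132249162-132253314) had a ratio of mean TPM of 2.06 and a difference of -1.05 ± 0.34. In the loader, Rfc3 was at 70.0 and 85.5 TPM in tumor #1 against 52.6 and 41.4 TPM in tumor #2 (-0.72 ± 0.44), and Rfc4 at 82.7 and 106 against 63.8 and 59.6 TPM (-0.60 ± 0.32). In both genes the difference was under 1.5 fold in the Tom- libraries (-0.40 and -0.37) and over it in the Tom+ libraries (-1.03 and -0.83). Rfc2 was at 126 and 120 against 105 and 88.2 TPM, Rfc1, the large subunit, at 40.7 and 45.6 against 36.2 and 39.7 TPM, and Rfc5 at 114 and 111 against 108 and 107 TPM. By ratio, the 4 values of Rfc5 lay closest together among the 42 genes, and its difference of -0.067 turned to 0.015 with protein-coding nuclear genes only. As a group the clamp and loader had a median difference of -0.47.

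In polymerase alpha-primase, which lays down the RNA and DNA primers, the catalytic subunit and its partner went in opposite directions between the tumors. Pola1 (chrX:93304767-93632155), the catalytic subunit, was at 26.6 and 29.5 TPM in tumor #1 against 13.4 and 15.5 TPM in tumor #2 (-0.91 ± 0.036). Pola2 (chr19:5940542-5964202), the accessory subunit, was at 23.0 and 22.4 against 35.0 and 29.4 TPM (0.48 ± 0.15). Pola1 was therefore above Pola2 in both libraries of tumor #1 and below it in both libraries of tumor #2. The primase subunits were lower in tumor #2 by less than this, with 49.5 and 56.7 against 40.7 and 37.0 TPM for Prim1 and 22.9 and 21.8 against 17.2 and 16.2 TPM for Prim2. For the polymerases that extend the lagging and leading strands, delta and epsilon, 0 of the 4 genes reached 1.5 fold in both comparisons. Pole, the catalytic subunit of epsilon, was higher in tumor #2 (22.5 and 32.1 against 40.2 and 36.9 TPM, 0.50 ± 0.43), and its partner Pole2 overlapped (12.6 and 15.3 against 11.0 and 13.6 TPM). Pold1, the catalytic subunit of delta, overlapped as well, at 40.4 and 58.5 against 44.8 and 36.2 TPM, whereas Pold2 was higher in tumor #1, at 75.4 and 71.7 against 62.5 and 41.96 TPM.

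The enzymes that finish Okazaki fragments were both lower in tumor #2 by more than 1.5 fold. Fen1, the nuclease that removes the flap of the primer, was at 35.0 and 31.8 TPM in tumor #1 against 18.0 and 11.0 TPM in tumor #2 (-1.18 ± 0.37). Lig1, the ligase that seals the nick, was at 81.7 and 78.0 against 42.6 and 32.7 TPM (-1.08 ± 0.22). In each tumor the Tom+ library was the lower one for both. The subunits of RPA, which coats single-stranded DNA, had a median difference of -0.63. Rpa1 was at 81.9 and 74.5 against 40.8 and 48.2 TPM (-0.80 ± 0.26), Rpa2 at 47.1 and 49.7 against 35.2 and 29.5 TPM (-0.57 ± 0.23) and Rpa3 at 80.6 and 84.7 against 57.7 and 49.1 TPM (-0.63 ± 0.21). In each of the 3 the tumors did not overlap.

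The tumor difference also varied with the chromosome on which a gene lies. Over all genes tested, the median difference was 0.53 on chromosome 5 (725 genes) and 0.53 on chromosome 3 (540 genes), -0.43 on chromosome 13 (456 genes) and between 0.12 and 0.25 on the other 17 chromosomes. The values of chromosome 5 were 0.51 in the Tom- and 0.51 in the Tom+ libraries, and those of chromosome 13 were -0.46 and -0.37. Chromosome 5 holds 9 of the 42 genes (21.4%, against 6.39% of the genes tested), namely Orc5, Mcm7, Cdc7, Dbf4, Rfc1, Rfc2, Rfc3, Rfc5 and Pole. Their median tumor difference was -0.067, while that of the other 33 genes was -0.60. Taken relative to the median of their own chromosome, computed without the 42 genes, the medians were -0.61 and -0.79, and 8 of the 9 lay below their chromosome. Pole was 0.036 below it and Cdc7 0.20 above it, on the log2 scale. On this relative scale Mcm7 had the lowest value of the 42 genes (-1.61), and Gmnn, the only one on chromosome 13, went from the lowest as measured to rank 12 (-1.14). In all, 38 of the 42 were below the median of their chromosome, and the 4 above it were Orc3 (0.49), Orc4 (0.73), Cdc7 and Pola2 (0.31). The median over the 42 genes was -0.74, with 24 genes lower by at least 1.5 fold and 0 higher. This scale was added after seeing the data. No share of all genes past 1.5 fold on it is given here, so the counts of 24 and 0 have no background beside them. For the count of 38, a chromosome median has by definition as many of its genes below as above.

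**Figure D3:**
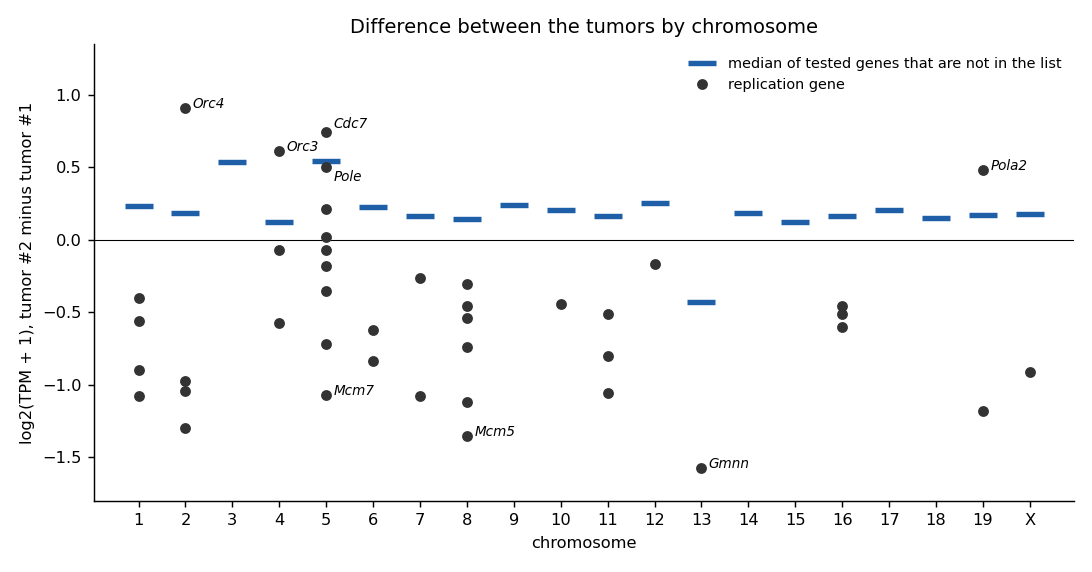
Difference in log2(TPM + 1), tumor #2 minus tumor #1, by chromosome. A blue bar is the median of the tested genes of a chromosome that are not among the 42, and a black point is 1 replication gene (the mean of its Tom- and Tom+ differences). The bars of chromosomes 3 and 5 lie above the others and that of chromosome 13 below, and all but 4 points lie below the bar of their chromosome.

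Promoters were examined because many of these genes differed in the same direction between the tumors. RefSeq windows on GRCm38.p6, from 250 bases before to 50 bases after an annotated start, were matched by symbol for 34 of the 42 genes (43 windows). Both strands were searched for 3 forms of the E2F-type motif, TTTCCCGC, TTTGGCGC and TTTCGCGC, which can overlap one another. Of the 34 genes, 14 (41.2%) held at least 1 match, namely Orc1, Orc3, Cdc6, Cdt1, Mcm3, Mcm5, Mcm6, Mcm7, Gins3, Rfc3, Pola1, Pold1, Pole2 and Lig1. The share was 2.12% of 27025 genes with a window, 4.51% of the 8042 of these that were tested (a symbol borne by several tested genes was left out) and 1.84% of all windows. A match is a run of letters and not a site shown to be bound. Below are 150 bases of 3 promoters with a match and 3 without, written 5′ to 3′ on the strand of the gene, with the matches in capitals. Mcm6 (chr1:128359706-128359855, minus strand), Mcm5 (chr8:75109309-75109458, plus strand) and Pola1 (chrX:93632156-93632305, minus strand) were lower in tumor #2. Of those without a match, Mcm2 (chr6:88898781-88898930, minus strand) was lower too, while Pola2 (chr19:5964207-5964356, minus strand) and Cdc7 (chr5:106964172-106964321, plus strand) were higher in tumor #2. These promoters were picked by hand, and their directions do not stand for their groups. Of the 20 genes without a match, 15 were lower in tumor #2 in both comparisons and 4 higher. Of the 14 with a match, 11 were lower and 1 higher, against 27.5% and 49.6% of all genes.
Mcm6: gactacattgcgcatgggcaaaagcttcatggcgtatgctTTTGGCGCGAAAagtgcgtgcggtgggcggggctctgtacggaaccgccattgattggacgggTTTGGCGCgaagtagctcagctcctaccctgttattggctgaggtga
Mcm5: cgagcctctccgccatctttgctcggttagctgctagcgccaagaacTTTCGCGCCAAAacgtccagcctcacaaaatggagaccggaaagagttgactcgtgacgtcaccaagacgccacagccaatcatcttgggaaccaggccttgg
Pola1: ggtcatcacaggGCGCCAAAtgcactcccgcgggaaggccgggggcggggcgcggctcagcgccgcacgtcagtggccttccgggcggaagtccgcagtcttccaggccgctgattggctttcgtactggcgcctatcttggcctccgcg
Mcm2: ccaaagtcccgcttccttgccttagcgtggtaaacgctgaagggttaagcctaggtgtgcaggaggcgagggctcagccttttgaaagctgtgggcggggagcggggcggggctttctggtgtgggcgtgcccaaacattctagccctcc
Pola2: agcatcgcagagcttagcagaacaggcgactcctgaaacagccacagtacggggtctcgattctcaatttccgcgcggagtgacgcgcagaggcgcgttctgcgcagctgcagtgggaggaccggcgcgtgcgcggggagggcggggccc
Cdc7: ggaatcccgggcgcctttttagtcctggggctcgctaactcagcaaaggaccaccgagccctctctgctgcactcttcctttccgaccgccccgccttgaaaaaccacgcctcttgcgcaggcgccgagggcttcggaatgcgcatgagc

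The replication genes with a match had a median tumor difference of -0.81, and 7 of the 14 were lower in tumor #2 by at least 1.5 fold. Those with a window and no match had a median of -0.53, with 5 of 20 lower and 1 higher. A match did not mark all genes that were lower, since Mcm2, Pcna and Fen1 had none in their windows, nor were all genes with a match lower, since Orc3 was higher in tumor #2. Among the tested genes outside the list, the 349 with a match had a median difference of 0.0030 and 32 of them (9.17%) were lower by at least 1.5 fold, while the 7659 without one had a median of 0.21 and 6.36% were lower.

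The comparison of Tom+ with Tom- cells asked whether cells marked by past Cre expression differ from the other cells of the same tumor. With limma's test on 2 pairs, 0 of the 42 genes had an adjusted p-value under the threshold of 0.05, as had 0% of all genes tested, and 0 of the 42 had an unadjusted p-value under it, against 4.67% of all genes (2.04% higher and 2.64% lower in Tom+ cells). The fit had 1 residual degree of freedom and called 0 of the 11339 genes after adjustment. The counts of 0 therefore do not show that levels were equal in Tom+ and Tom- cells. The smallest p-value among the 42, that of Orc6, was 0.058, and the adjusted p-values from limma ran from 0.936 to 0.999. The Tom+ libraries were higher in both tumors for 5 genes (21.6% of all genes) and lower in both for 14 (29.5% of all genes), and 23 went in opposite directions. With protein-coding nuclear genes only these counts were 9 and 12, and with immunoglobulin genes left out they were 8 and 13. The shares of all genes under these settings are not given here. Within tumor #1, 10 of the 42 genes lay past 1.2 fold in either direction (40.7% of all genes), and within tumor #2 17 did (49.5% of all genes). All genes tested had a lower median level than the 42 genes, and these shares were not matched for level. In tumor #1 the median difference, Tom+ minus Tom-, was 0.087, with 24 genes higher in Tom+ cells (48.6% of all genes), and in tumor #2 it was -0.15, with 33 genes lower (56.6% of all genes). Over all genes these medians were -0.0029 and -0.057. The mean of both tumors had a median of -0.031 over the 42 genes, but 0.0040 after trimmed-mean scaling and 0.021 with protein-coding nuclear genes only.

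Orc6, the smallest subunit of the origin recognition complex, had the largest difference among the 5 genes that were higher in Tom+ cells of both tumors. Its TPM was 61.9 (Tom-) and 78.4 (Tom+) in tumor #1 and 40.3 and 56.4 in tumor #2, a log2 difference of 0.40 (SE 0.14, adjusted p = 0.936 from limma). Gins1 was higher in Tom+ cells by 0.35 (SE 0.16), Pole2 by 0.27 (SE 0.17), Pola1 by 0.17 (SE 0.16) and Rfc1 by 0.14 (SE 0.14). Pole2 was the only one of the 42 in which both Tom+ libraries were above both Tom- libraries, which held for 6.42% of all genes, although its level is uncertain because its transcripts share sequence with another gene. The reverse was found for 0 of the 42 and for 9.86% of all genes.

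Among the 14 genes that were lower in Tom+ cells of both tumors, Gins2 had the largest difference of the whole list. It was at 28.9 and 22.2 TPM in tumor #1 against 14.0 and 8.79 TPM in tumor #2, a log2 difference of -0.50 (SE 0.18, adjusted p = 0.936 from limma). Within the GINS complex, Gins1 was thus higher and Gins2 lower in the Tom+ library of each tumor. Fen1 (-0.40, SE 0.21), Cdt1 (-0.33, SE 0.19) and Pold2 (-0.32, SE 0.19) followed, where Fen1 and Pold2 rested on tumor #2 (-0.66 and -0.56, against -0.13 and -0.072 in tumor #1) and Cdt1 on tumor #1 (-0.50, against -0.16). For Mcm2, Mcm6, Mcm7, Mcm10, Gins4, Rfc2, Rfc5, Pola2, Prim2 and Lig1 the difference lay between -0.22 and -0.027, and that of Rfc5 turned positive under some of the scalings. The sorted fractions also differed in other genes. Jchain was at 0.330 and 1.72 TPM in tumor #1 against 1.24 and 209 TPM in tumor #2, and its part in the values of tumor #2 was not tested.

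**Figure D4:**
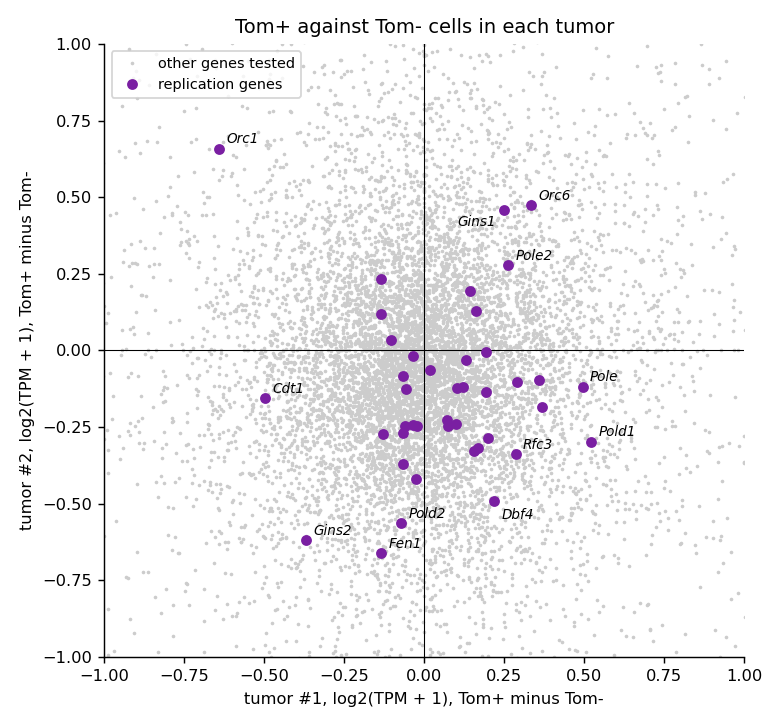
Difference in log2(TPM + 1), Tom+ minus Tom-, in tumor #1 (horizontal) and in tumor #2 (vertical), with purple points for the 42 replication genes and gray dots for the other genes tested. Of all genes tested, 1455 lie outside the plotted range of 1 in either direction. The purple points lie around the center, 33 of them below the horizontal line, and Orc1 is the only one in the upper left corner.

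The neighbors of the 42 genes in the cell cycle were taken from lists of 30 other replication fork genes, 13 S-phase entry genes and 17 genes of G2 and M phase, all of which passed the filter. Each list had a median tumor difference below that of all genes, with -0.40 for the fork genes, -0.97 for S-phase entry and -0.66 for G2 and M phase. Lower in tumor #2 by at least 1.5 fold were 7 of the 30, 8 of the 13 and 8 of the 17, against 7.53% of all genes. Higher were 1, 0 and 0, against 22.6% of all genes. In the fork list Wdhd1, which links the helicase to polymerase alpha, was at 368 and 519 TPM in tumor #1 against 202 and 98.9 TPM in tumor #2 (-1.62), and Dscc1, part of an alternative clamp loader, had -1.16. For S-phase entry, E2f1, a transcription factor of this program, was at 13.5 and 13.7 against 5.16 and 4.70 TPM (-1.30). The other E2F gene of the list, E2f2, went the other way, at 36.7 and 33.2 against 58.2 and 37.3 TPM (0.41). In the mitotic list, Ccnb1, the cyclin of the mitotic kinase, was at 79.4 and 71.4 against 25.8 and 19.0 TPM (-1.72), and Birc5, a subunit of the chromosomal passenger complex, at 67.1 and 67.9 against 29.5 and 20.6 TPM (-1.41). Ccnb1 lies on chromosome 13, like Gmnn, and relative to that chromosome its value was -1.29.

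Between Tom+ and Tom- cells, 2 of the 30 fork genes, 0 of the 13 S-phase entry genes and 0 of the 17 mitotic genes had an unadjusted p-value under 0.05 from limma. The share of all genes was 4.67%, near that of the fork list, and 0 passed after adjustment. Mcm9, a helicase of DNA repair related to the MCM ring, was higher in Tom+ cells of both tumors, at 25.6 and 59.9 TPM in tumor #1 against 40.1 and 137 TPM in tumor #2 (log2 difference 1.47, SE 0.21, adjusted p = 0.936 from limma). Its Tom difference was larger than that of any of the 42 genes. Pold4, the small subunit of polymerase delta, was lower in Tom+ cells, at 11.6 and 7.70 against 24.3 and 11.9 TPM (-0.76, SE 0.21, adjusted p = 0.936 from limma). Rnaseh2c, a subunit of the enzyme that removes ribonucleotides from DNA, had -1.38 (SE 0.48), with 82.2 and 55.7 TPM in tumor #1 against 85.8 and 17.9 TPM in tumor #2. The largest Tom differences of the S-phase entry list were E2f2 (-0.38) and Ccne2 (-0.27), and those of the mitotic list Bub1 (-0.44) and Cenpe (-0.37).

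Some of the 42 genes share sequence with other genes, so that the division of reads between them is uncertain. Counted over all 60-base stretches of their annotated transcripts, the read length used, 18 of the 42 shared none with another gene. Pcna shared 17.0%, all of it with the pseudogene Pcna-ps2, which was listed at 0.703 and 0.513 TPM in tumor #1 against 0.246 and 0 TPM in tumor #2, far below Pcna itself. Another Pcna pseudogene, Pcna-ps1, was listed at 0 throughout. Mcm7 shared 14.3%, Rpa3 8.64% and Pole2 7.18%. For Mcm7 the main partner was Gm5487 (13.1%). No TPM was listed for Gm5487, so its part in the level of Mcm7 cannot be checked here. For Pole2 the main partner, Gm49384, was listed at 15.3 and 13.4 TPM in tumor #1 against 11.2 and 6.80 TPM in tumor #2, close to Pole2 in all but the last library, and the level of Pole2 is therefore uncertain. Cdc6 (2.39%) and Rfc5 (2.32%) followed, and the others shared less.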

How the data were processed

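RNA-seq was measured in 4 libraries, 2 per group, from splenocytes of 2 mice. Single 60-base reads (NEBNext, HiSeq2500) were extracted with CASAVA 1.8, trimmed with Cutadapt, dropped under 30 bases and quantified with Salmon 1.9 on GRCm38, release 76 (tool versions from the submitters' processing notes). The authors deposited 1 table of TPM for 34866 genes, and how transcripts were combined into genes is not given in the sources used here. TPM keeps no read number, so precision per library is unknown, and the authors' paired edgeR test, which needs counts, was not run.

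Gene positions came from GENCODE M21 (34652 identifiers matched). The 42 genes and all lists were chosen with earlier results of these data known. Values were taken as log2(TPM + 1) for 11339 genes at 1 TPM or above in 2 or more libraries. Tom+ and Tom- cells were compared with limma 3.58.1 in R 4.3.3 (moderated two-sided test, variance trend, tumor as block since each mouse gave both of its libraries, residual degrees of freedom 1, prior degrees of freedom 2.21) with Benjamini-Hochberg adjustment over all genes at 0.05. Tumors were compared without a test, counting genes past 1.5 fold in the same direction in Tom- and Tom+ libraries. All 42 genes were named, and of each context list the 2 largest absolute Tom and tumor differences, apart from some items that are not reported here. Pold4, the tumor difference of E2f2 and the partners in shared sequence were chosen after their values were seen.

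Alternatives were no replicate block, no filter or a mean of at least 5 TPM, pseudocounts (0.1 and 0.5), quantile normalization, trimmed-mean scaling (30% of log ratios and 5% of levels trimmed at each end), leaving out immunoglobulin genes, protein-coding nuclear genes only, no variance trend, a robust prior, other fold limits, and single tumors or Tom fractions. Differences relative to chromosome medians were added after seeing the data. Scripts were tested on simulated data. Python 3.11.15 with pandas 2.3.3, numpy 2.4.6 and matplotlib 3.10.9 served for tables and plots.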

Additional observations from a re-analysis of the deposited data

Results flagged for a closer look

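In 3 of the 42 genes the Tom+ and Tom- libraries lay more than 1.2 fold apart in opposite directions in the tumors, where 11.6% of all genes tested did so. These differences between the tumors were not tested, since each tumor gave 1 pair. For Orc1 the difference, Tom+ minus Tom-, was -0.64 in tumor #1, with 20.04 TPM in Tom- and 12.5 TPM in Tom+ cells, and 0.66 in tumor #2, with 11.8 and 19.2 TPM. For Rfc3, a subunit of the clamp loader, it was 0.29 in tumor #1 (70.0 and 85.5 TPM) and -0.34 in tumor #2 (52.6 and 41.4 TPM). For Pold1, the catalytic subunit of polymerase delta, it was 0.52 in tumor #1 (40.4 and 58.5 TPM) and -0.30 in tumor #2 (44.8 and 36.2 TPM). With 1.5 fold as the limit, only Orc1 of these 3 was left, and with trimmed-mean scaling 2 were left, since Pold1 had -0.24 in tumor #2.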

How the results depend on the processing

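At an adjusted p-value of 0.05, 0 of the 42 genes passed under each of the fits run, and the smallest adjusted p-value among them from limma lay between 0.913 and 1.000. At an unadjusted 0.05 the count was 1 with no filter, with trimmed-mean scaling and with protein-coding nuclear genes only (Orc6 in each) and 1 with a mean of at least 5 TPM (Gins2). Without the replicate block, the pairing of the libraries by mouse, 0 of the 42 genes passed at either threshold, and the count over all genes at an unadjusted 0.05 went from 530 to 140. Without replicate 1 or 2, the median Tom difference was -0.15 and 0.087. Genes higher in Tom+ cells of both tumors numbered 8 with immunoglobulin genes left out and 9 with protein-coding nuclear genes only (shares of all genes not given). For the tumors, trimmed-mean scaling gave 25 lower and 0 higher genes with a median of -0.80 (13.3% of all genes lower and 16.6% higher). Quantile normalization gave a median of -0.74, and protein-coding nuclear genes only gave 3 higher genes (25.9% of all genes). A fold limit of 2 gave 3 lower and 0 higher, and without the Tom+ libraries 4 were higher. Shares of all genes are not given for these last counts. Relative to the chromosome medians, added after seeing the data, 0 were higher (no share of all genes is given on this scale) and the median was -0.74. With a limit of 1.5 fold, 1 gene went in opposite directions. A stricter limit and fewer libraries change such counts by construction, and for the other settings the cause was not tested.

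Of the Tom differences of single genes over the settings, 443 kept their direction and 19, all small and uncalled, turned positive: with trimmed-mean scaling Orc2 (0.029), Orc5 (0.016), Mcm3 (0.029), Rfc3 (0.012) and Rfc5 (0.011), with quantile normalization Orc2 (0.021) and Mcm3 (0.013), with immunoglobulin genes left out Orc2 (0.020), Orc5 (0.0070), Mcm3 (0.019), Rfc3 (0.0028) and Rfc5 (0.0024), and with protein-coding nuclear genes only Orc2 (0.047), Orc5 (0.033), Cdc6 (0.0088), Mcm3 (0.046), Gins3 (0.014), Rfc3 (0.029) and Rfc5 (0.029). Settings that change only the filter, the block, the variance trend or the prior leave the log2 difference of a gene as it is. All 42 directions were therefore kept by construction in each of those settings, and they form part of the 443. The unknown depth limits the low genes most, such as Gins3.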
